A study of Mus musculus with 6 samples.

Results

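Lysosomal hydrolases and membrane proteins are the enzymes and membrane components with which a cell degrades material in its lysosomes, and 33 genes of this kind were followed in pancreatic stellate cells (PSCs), the fibroblast-like cells of the pancreas that form scar tissue. The 33 genes were given as a list of names, and no measured value enters the rule. The list itself was chosen with earlier results of these data known. All 33 were found among the 15197 genes with enough counts to be tested, out of 49671 genes in the count table. Primary PSCs of C57BL6/J WT mice were cultured for 120 h on plastic dishes in DMEM/Ham F12 with serum, with the medium at an extracellular pH (pHe) of 6.6 or 7.4 set by its sodium bicarbonate. Poly(A) RNA was sequenced from 3 biological replicates at pHe6.6 and 3 at pHe7.4, each lettered A to C. The bicarbonate content and the pH of the medium therefore varied together and cannot be told apart. The labels call the replicates biological, and a figure legend of the study gives 3 mice for these RNA data. Whether the same mice supplied both groups is not given in the sources used here.

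Soluble lysosomal enzymes are made in the endoplasmic reticulum, receive a mannose 6-phosphate tag in the Golgi apparatus and are carried to the lysosome by receptors that bind this tag. A proton pump keeps the lysosome acidic, and the enzymes work best at that acidic pH. Membrane proteins of the lysosome, such as the glycosylated LAMP proteins, line its inner face and move ions, lipids and other products across it. Many lysosomal genes carry short E-box-like elements in their promoters that TFEB and its relatives TFE3, MITF and TFEC can bind.

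The promoter sequences of these genes are shown first because the E-box core CACGTG is read from the genome and not from the counts. Whether the element entered the choice of the genes is not known. Many lysosomal genes carry such elements, so that a raised share among them is no independent result. RefSeq promoters (GRCm38.p6, 250 bases before to 50 bases after the transcription start) were found for 30 of the 33 genes, and Galns, Asah1 and Npc1 were not matched. CACGTG, which reads the same on both strands, occurred in 9 of these 30 promoters (30%, exact binomial 95% interval 14.7 to 49.4%), against 8.09% of all 27025 promoters and 11.5% of the 11109 promoters of genes tested. The longer GTCACGTG, searched on both strands and containing the core, occurred in 8 of the 30 (26.7%), against 2.55% of all promoters and 4.60% of those of genes tested. TCACGTGA, which also contains the core and reads the same on both strands, occurred in 3 of the 30 (10%), against 1.12% of all and 2.12% of those of genes tested. A match is a description of the sequence and does not show that a factor binds there.

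The stretches around the core are given for the gene with the most copies and for 3 single-copy genes whose transcripts are described below, 5′ to 3′ on the strand of the gene, with the core in capitals. The Lamp1 stretch lies at chr8:13159088-13159163 on the plus strand and holds 4 copies, which begin 61, 45, 28 and 15 bases before the start. The Naglu stretch lies at chr11:101070009-101070038 on the plus strand with its copy 73 bases before the start, and the Gaa stretch at chr11:119267811-119267840 on the plus strand with its copy 140 bases before the start. The Arsa stretch lies at chr15:89477423-89477452 on the minus strand, with its copy 16 bases before the start.
Lamp1: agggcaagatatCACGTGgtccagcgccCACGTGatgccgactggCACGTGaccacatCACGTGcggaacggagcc
Naglu: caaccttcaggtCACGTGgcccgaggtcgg
Gaa: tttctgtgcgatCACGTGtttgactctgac
Arsa: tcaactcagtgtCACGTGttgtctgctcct
The other genes with a core were Mcoln1, Sgsh, Glb1, Gla and Cln3. The 9 genes with a core had a median log2 fold change, pHe6.6 over pHe7.4, of 0.58 and 8 of them were higher at pHe6.6 in edgeR's test, and the 21 genes without a core had a median of 0.67, with 18 higher. The range was -0.31 to 1.20 with the core and -0.56 to 1.37 without it.

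**Figure D1:**
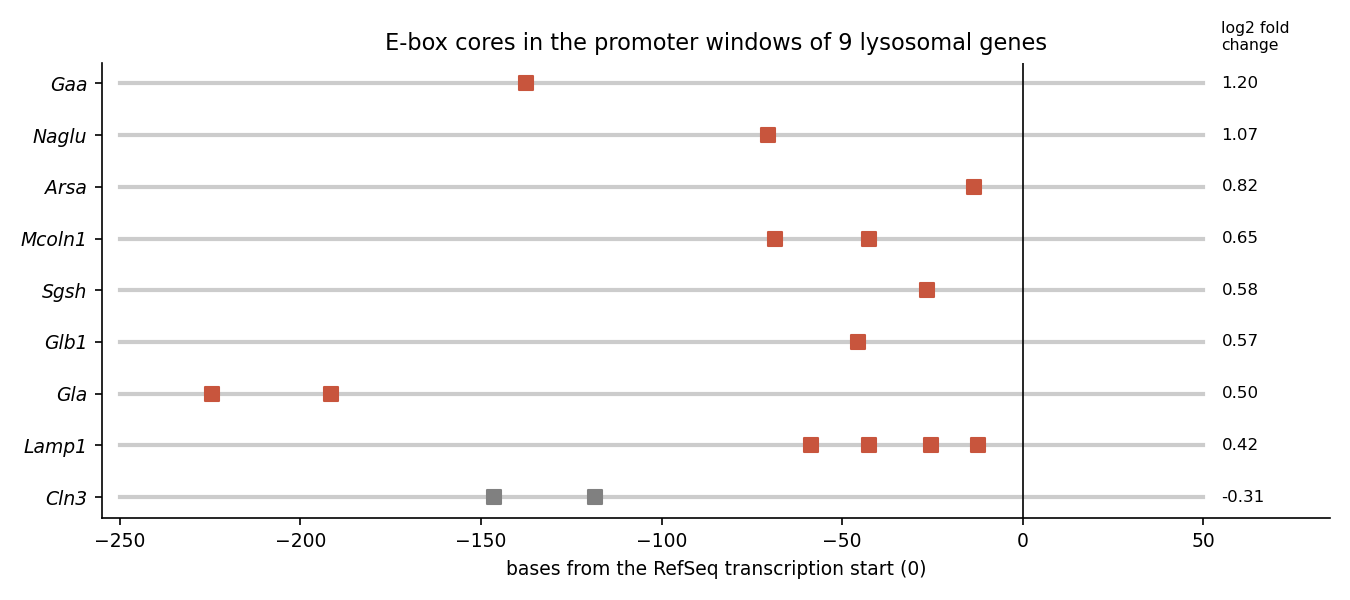
Positions of the E-box core in the 9 promoter windows that hold it, in bases from the RefSeq transcription start, with each gene's log2 fold change (pHe6.6 over pHe7.4) at the right. Red squares mark genes higher at pHe6.6 and grey squares Cln3, which did not pass the threshold, and Lamp1 with 4 copies has a smaller fold change (0.42) than Gaa with 1 (1.20).

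The 6 libraries held 28904761 to 38331877 counts each. In what follows, levels are TMM-normalized CPM, the counts of a gene relative to the effective size of its library, means are given with SD (n = 3 per group), and fold changes, their standard errors (SE) and adjusted p-values come from edgeR's quasi-likelihood test over all 15197 genes, with an adjusted p under 0.05 taken as the threshold. Among cell type markers, stellate cell and fibroblast genes summed to 37561 to 40516 CPM at pHe6.6, against 38662 to 48783 CPM at pHe7.4. Col3a1, Col1a2 and Col1a1 had the highest CPM among them. Of the 11 tested, 6 were higher at pHe6.6 and 1 was lower, beside shares of 26.4% higher and 25.9% lower over all genes tested. Their log2 fold changes ranged from -0.97 (Col1a1, lower) to 1.94 (Lum, higher). Mesothelial markers summed to 252 to 597 CPM at pHe6.6, against 1373 to 1516 CPM at pHe7.4, with no overlap. Duct cell markers (66.8 to 248 CPM at pHe6.6, against 408 to 574 CPM at pHe7.4) and endothelial markers (21.1 to 33.8 CPM at pHe6.6, against 47.4 to 59.3 CPM at pHe7.4) were likewise separate and lower at pHe6.6. Gene by gene, and beside the same shares over all genes tested, 9 of 14 mesothelial markers were lower and 1 was higher (Cldn15). Of 7 endothelial markers, 5 were lower and 1 was higher (Tek). Of 5 duct cell markers, 2 were lower and 3 did not pass the threshold. The keratins Krt18 (mean 105 CPM at pHe6.6, 414 CPM at pHe7.4) and Krt8 (84.4 CPM at pHe6.6, 374 CPM at pHe7.4) weighed most in the mesothelial sum. That list also holds Krt19, whose protein the paper stained to mark ductal or tumor cells, so that the mesothelial and duct lists are not fully distinct. In bulk RNA, fewer cells of a type and less RNA per cell cannot be told apart.

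Of the 33 lysosomal genes, 28 were higher at pHe6.6, 1 was lower (Gnptab) and 4 did not pass the threshold (Npc1, Scarb2, Gusb and Cln3). Over all genes tested, 26.4% were higher and 25.9% lower at pHe6.6, 52.3% in either direction. The median log2 fold change of the 33 genes was 0.65, with a range of -0.56 to 1.37, against a median of -0.01 over all genes tested. A log2 fold change of at least 1 was reached by 7 of the 28 higher genes, against 7.99% of all genes tested, and one of at least 0.58 by 19, against 15% of all genes tested. For 28 of the 33 genes all 3 libraries at pHe6.6 lay above all 3 at pHe7.4, against 31.5% of all genes tested, and for Gnptab and Cln3 all 3 lay below, against 31.7% (63.2% for either direction). Against a log2 fold change of 0.58 in place of 0 (edgeR's glmTreat), 13 of the 33 genes were higher, against 8.33% of all genes tested. The 28 genes with a higher and separate pHe6.6 group were those that passed the threshold upward.

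**Figure D2:**
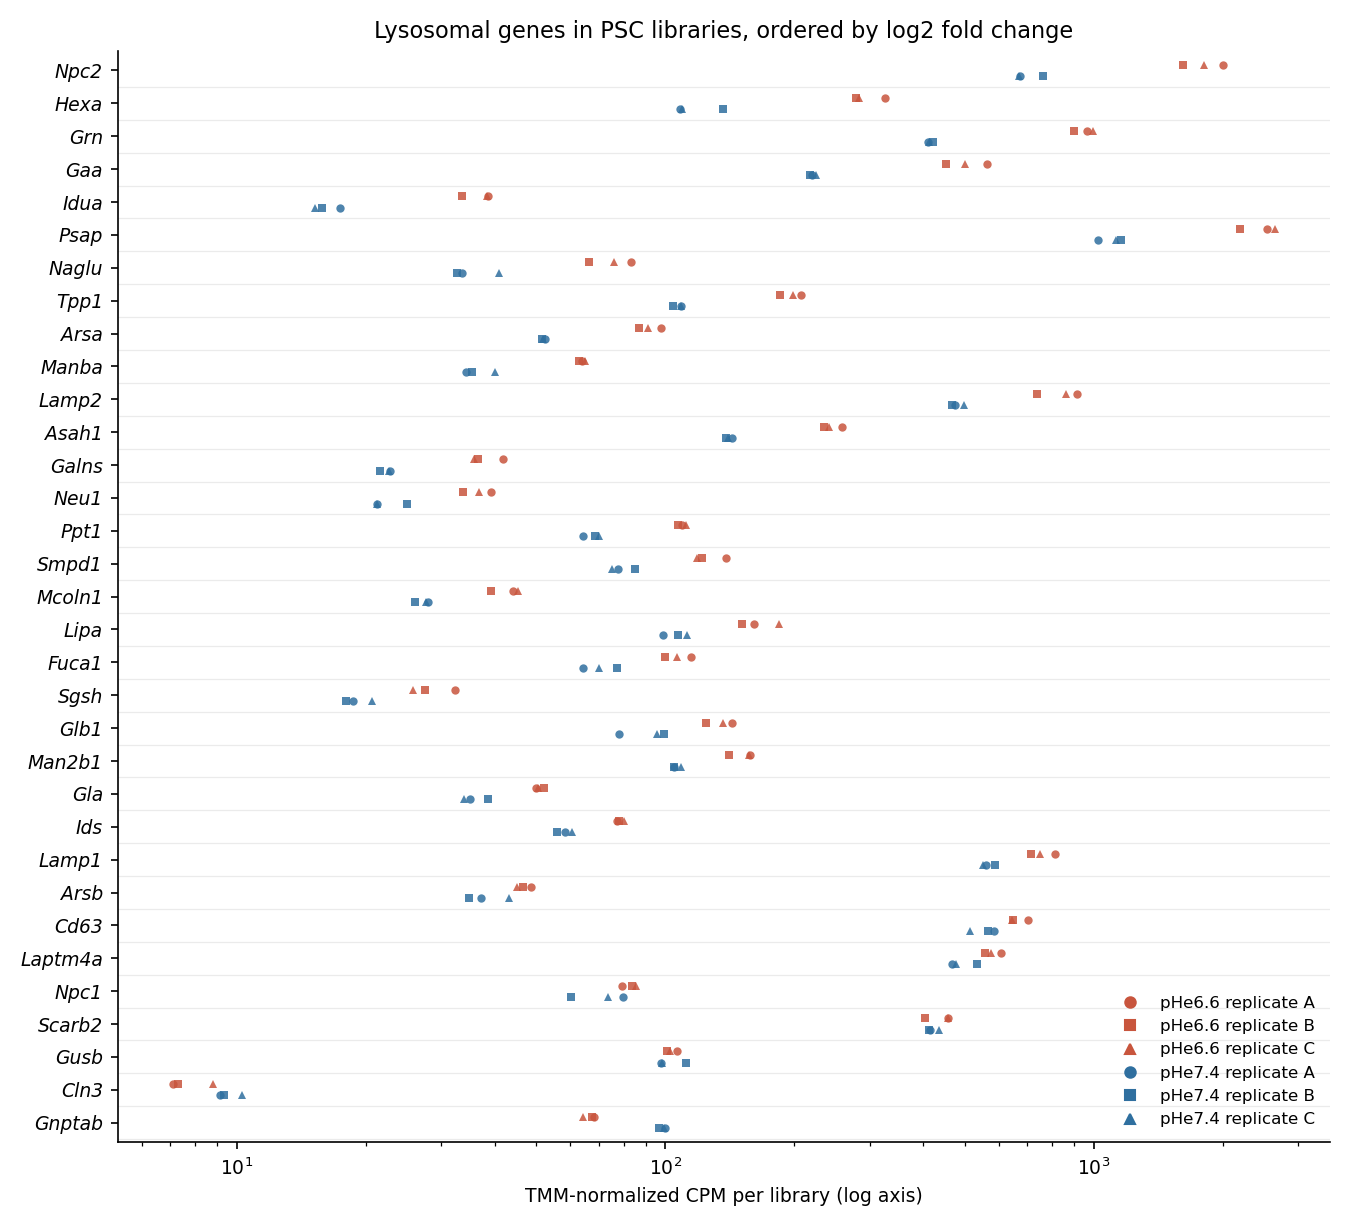
TMM-normalized CPM (log axis) of the 33 lysosomal genes in each library, pHe6.6 in red above pHe7.4 in blue, with circles, squares and triangles for replicates A, B and C and genes ordered by log2 fold change. From Npc2 down to Laptm4a the 3 red points of every gene lie right of its 3 blue points, the groups of Npc1, Scarb2 and Gusb overlap, and the red points of Cln3 and Gnptab lie left.

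Together the 33 genes summed to 12065, 10489 and 11625 CPM in pHe6.6 replicates A, B and C, against 6324, 6686 and 6460 CPM in pHe7.4 replicates A, B and C. The mean was 11393 ± 813 CPM at pHe6.6, against 6490 ± 183 CPM at pHe7.4, a difference of 0.81 on the log2 scale. These genes took up 1.07 ± 0.07% of all counts at pHe6.6 and 0.689 ± 0.037% at pHe7.4. All 3 libraries at pHe6.6 lay above all at pHe7.4, and pHe6.6 replicate B was the lowest of its group. That library was also the lowest of the 3 at pHe6.6 for 23 of the 33 genes, and replicate A was the highest for 23. Psap and Npc2 alone made up 37.5% of the summed level at pHe6.6 and 27.8% at pHe7.4. The coefficient of variation between replicates of a gene had a median of 6.96% at pHe6.6 and 6.41% at pHe7.4.

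Macrophages are rich in lysosomes, so that their markers were set beside these sums. The 20 macrophage markers summed to 764, 901 and 1386 CPM in pHe6.6 replicates A, B and C, against 665, 991 and 849 CPM in pHe7.4 replicates A, B and C, and the groups overlapped. Of the 20 markers, 8 (40%) were higher at pHe6.6, 1 (5%) was lower and 11 did not pass the threshold. Over all genes tested, 26.4% were higher and 25.9% lower. The median log2 fold change of the 20 markers was 0.54, with a range from -1.32 (Cd14, lower) to 2.45 (Ccr2, higher). The most abundant marker, Lyz2, averaged 315 ± 124 CPM at pHe6.6, against 316 ± 82.5 CPM at pHe7.4 (log2 fold change -0.01, SE 0.32, adjusted p = 0.99), while the lysosomal membrane glycoprotein Cd68, one of the 8, averaged 55.6 ± 12.3 CPM at pHe6.6, against 32.95 ± 3.36 CPM at pHe7.4. No marker of the list was at 0 in every library. At pHe6.6 the library with the highest sum of the lysosomal genes (A) had the lowest sum of macrophage markers. That order concerns the libraries of 1 group and not the difference between the groups. Replicate C at pHe6.6 had the highest sum of macrophage markers, and 8.92 CPM of 4 B cell markers against 0.03 to 0.18 CPM elsewhere. Without that library, 26 lysosomal genes were higher and 2 lower (Gnptab and Cln3). The part of macrophages and of mesothelial, duct and endothelial cells in the lysosomal differences was not tested.

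**Figure D3:**
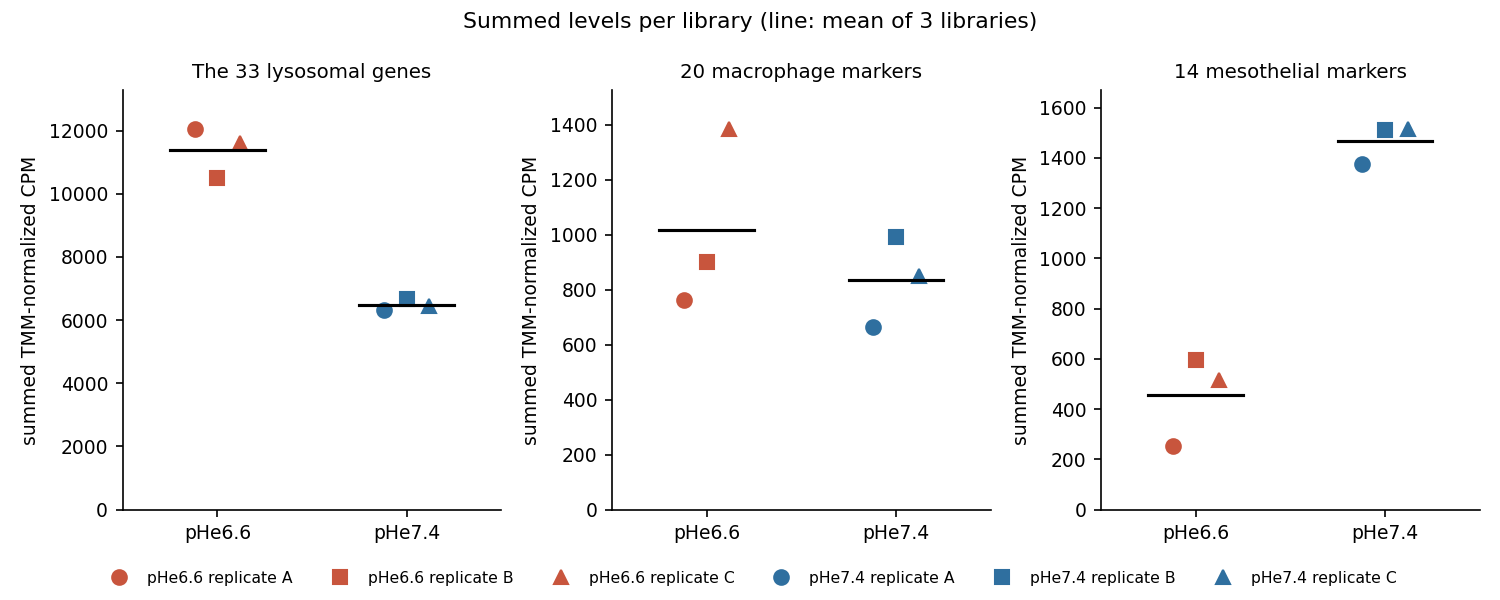
Summed TMM-normalized CPM per library of the 33 lysosomal genes (left), 20 macrophage markers (middle) and 14 mesothelial markers (right), with pHe6.6 in red, pHe7.4 in blue and a line at the mean of 3 libraries. The lysosomal sums are separate between the groups (10489 to 12065 against 6324 to 6686 CPM), the macrophage sums overlap, and the mesothelial sums are lower in all 3 libraries at pHe6.6.

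The 7 genes for the breakdown of glycosphingolipids and other sphingolipids were all higher at pHe6.6, with a median log2 fold change of 0.80. Psap encodes prosaposin, which is cut into the 4 saposins that present sphingolipids to their hydrolases. It had 2538, 2194 and 2645 CPM in pHe6.6 replicates A, B and C, against 1023, 1158 and 1127 CPM in pHe7.4 replicates A, B and C. Every library at pHe6.6 thus held more than any at pHe7.4, and the log2 fold change was 1.16 (SE 0.10, adjusted p = 1.1e-04). Hexa, the alpha subunit of the hexosaminidase that removes a sugar from GM2 ganglioside, had 327, 280 and 283 CPM at pHe6.6, against 108, 137 and 109 CPM at pHe7.4. The lowest library at pHe6.6 lay far above the highest at pHe7.4 (log2 fold change 1.33, SE 0.11, adjusted p = 8.4e-05). By the annotation, 12.8% of the exon bases of Hexa are shared with a gene on the other strand (Tmem202), and whether reads were counted by strand is not given in the sources used here.

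Arsa, the sulfatase that acts on sulfatide, had 98.0, 86.8 and 91.0 CPM at pHe6.6, against 52.5, 51.6 and 51.9 CPM at pHe7.4. The pHe7.4 libraries of Arsa were nearly equal and all below those at pHe6.6 (log2 fold change 0.82, SE 0.06, adjusted p = 6.2e-05), and 18.8% of its exon bases are shared with a gene on the other strand. Asah1, acid ceramidase, had 259, 235 and 241 CPM at pHe6.6, against 143, 138 and 140 CPM at pHe7.4 (log2 fold change 0.80, SE 0.06). Smpd1, acid sphingomyelinase, had 139, 122 and 118 CPM at pHe6.6, against 77.6, 84.8 and 75.3 CPM at pHe7.4 (log2 fold change 0.67, SE 0.08). Neither gene had overlapping groups. The galactosidases showed smaller differences, with a log2 fold change of 0.57 (SE 0.10) for Glb1, which acts on GM1 ganglioside, and of 0.50 (SE 0.07) for Gla, which acts on globotriaosylceramide. Both passed the threshold.

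Of the 7 genes for glycosaminoglycan breakdown, which take apart heparan, dermatan and keratan sulfate one residue at a time, 6 were higher at pHe6.6 and 1 (Gusb) did not pass the threshold, with a median log2 fold change of 0.58. Idua, alpha-L-iduronidase, had 38.5, 33.5 and 38.3 CPM at pHe6.6, against 17.4, 15.8 and 15.3 CPM at pHe7.4. All 3 libraries at pHe6.6 lay above every library at pHe7.4 (log2 fold change 1.19, SE 0.09, adjusted p = 5.3e-05). Naglu, an N-acetylglucosaminidase of heparan sulfate breakdown, had 83.1, 66.5 and 75.7 CPM at pHe6.6, against 33.6, 32.7 and 40.9 CPM at pHe7.4 (log2 fold change 1.07, SE 0.11). Galns, a sulfatase of keratan sulfate breakdown, had 41.7, 36.5 and 35.7 CPM at pHe6.6, against 22.8, 21.6 and 22.6 CPM at pHe7.4 (log2 fold change 0.76, SE 0.08). The groups of both genes were separate.

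The other sulfatases of this pathway had smaller log2 fold changes. Sgsh, which acts on heparan sulfate, had a log2 fold change of 0.58 (SE 0.10), and Ids, iduronate 2-sulfatase, of 0.43 (SE 0.06). Arsb, which acts on dermatan sulfate, had 48.6, 46.7 and 45.2 CPM at pHe6.6, against 37.1, 34.8 and 43.2 CPM at pHe7.4. Its groups lay close together (log2 fold change 0.29, SE 0.09, adjusted p = 0.029), and it was no longer past the threshold without pHe6.6 replicate A, B or C or pHe7.4 replicate A or B (adjusted p of 0.076, 0.058, 0.054, 0.092 and 0.074 in that order). As much as 39.9% of the exon bases of Arsb, and 21.6% of those of Sgsh, are shared with genes on the other strand. Gusb, beta-glucuronidase, averaged 103 ± 3.08 CPM at pHe6.6, against 102 ± 7.99 CPM at pHe7.4. Its groups overlapped, and the 95% interval of its log2 fold change was -0.15 to 0.18.

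All 5 genes for glycoprotein and glycogen breakdown were higher at pHe6.6, with a median log2 fold change of 0.70. Gaa, the acid alpha-glucosidase that degrades glycogen, had 564, 453 and 500 CPM at pHe6.6, against 219.9, 218 and 224 CPM at pHe7.4. The 3 libraries at pHe7.4 were nearly alike, whereas those at pHe6.6 were more spread but all higher (log2 fold change 1.20, SE 0.09, adjusted p = 5.3e-05). Manba, beta-mannosidase, had 64.1, 62.8 and 65.1 CPM at pHe6.6, against 34.4, 35.4 and 40.1 CPM at pHe7.4 (log2 fold change 0.81, SE 0.07). Neu1, the lysosomal sialidase, had 39.3, 33.6 and 36.7 CPM at pHe6.6, against 21.3, 24.9 and 21.3 CPM at pHe7.4 (log2 fold change 0.70, SE 0.09). Fuca1, alpha-L-fucosidase, had 115, 99.998 and 106 CPM at pHe6.6, against 64.3, 77.3 and 70.1 CPM at pHe7.4 (log2 fold change 0.60, SE 0.09). In each of these genes the lowest library at pHe6.6 exceeded the highest at pHe7.4, as it did for the alpha-mannosidase Man2b1, with a log2 fold change of 0.51 (SE 0.07).

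For lipids other than sphingolipids, the cholesterol-binding protein Npc2 had the largest log2 fold change of the 33 genes. It had 2008, 1613 and 1807 CPM in pHe6.6 replicates A, B and C, against 673, 763 and 670 CPM in pHe7.4 replicates A, B and C. The means were 1809 ± 198 CPM at pHe6.6, against 702 ± 52.8 CPM at pHe7.4, a 2.58-fold higher level at pHe6.6 (log2 fold change 1.37, SE 0.11, adjusted p = 6.4e-05). Npc2 hands cholesterol to the membrane protein Npc1, which averaged 82.8 ± 3.27 CPM at pHe6.6, against 71.2 ± 10.1 CPM at pHe7.4. The groups of Npc1 overlapped and its log2 fold change of 0.22 (95% interval -0.02 to 0.46, adjusted p = 0.11) did not pass the threshold, although without pHe7.4 replicate A it did (log2 fold change 0.30, adjusted p = 0.048). Lipa, the acid lipase that frees cholesterol from its esters, had 161, 151 and 184 CPM at pHe6.6, against 98.8, 107 and 112 CPM at pHe7.4. Every library at pHe6.6 was higher (log2 fold change 0.64, SE 0.09).

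The enzymes for protein breakdown and depalmitoylation were both higher at pHe6.6. The tripeptidyl peptidase Tpp1 had 207, 185 and 198 CPM at pHe6.6, against 109, 104 and 109 CPM at pHe7.4 (log2 fold change 0.88, SE 0.06, adjusted p = 4.8e-05). The thioesterase Ppt1, which removes palmitate from proteins, had 109.6, 107 and 112 CPM at pHe6.6, against 64.1, 68.5 and 70.2 CPM at pHe7.4 (log2 fold change 0.70, SE 0.06). Replicates of both genes were close together and the groups were separate.

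The 7 membrane proteins had a median log2 fold change of 0.26. Of these, 5 were higher and 2 (Scarb2 and Cln3) did not pass the threshold. Of the other 26 genes, which were grouped by function and include the membrane protein Npc1, 23 were higher, with a median of 0.70. Lamp2, a LAMP protein that also serves in autophagy, had 914, 739 and 863 CPM at pHe6.6, against 475, 466 and 499 CPM at pHe7.4. The groups were far apart (log2 fold change 0.80, SE 0.09, adjusted p = 3.7e-04). Lamp1, its close relative, had 811, 715 and 749.5 CPM at pHe6.6, against 561, 588 and 552 CPM at pHe7.4. Its groups were separate, with a smaller log2 fold change of 0.42 (SE 0.08, adjusted p = 0.0029). Mcoln1, which encodes the lysosomal calcium channel TRPML1, had 44.1, 39.2 and 45.3 CPM at pHe6.6, against 28.0, 26.1 and 27.7 CPM at pHe7.4, again with no overlap (log2 fold change 0.65, SE 0.08).

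Cd63, a tetraspanin of late endosomes and lysosomes, had 702, 647 and 644 CPM at pHe6.6, against 584, 568 and 515 CPM at pHe7.4. The groups were separate by a narrow margin (log2 fold change 0.26, SE 0.08, adjusted p = 0.027), and the threshold was no longer passed when either pHe7.4 replicate C (adjusted p = 0.10) or replicate A of the pHe6.6 group (adjusted p = 0.078) was left out. Laptm4a, a small membrane-spanning protein of lysosomes, had 608, 557 and 575 CPM at pHe6.6, against 467, 535 and 476 CPM at pHe7.4. Its lowest library at pHe6.6 was just above its highest at pHe7.4 (log2 fold change 0.23, SE 0.08, adjusted p = 0.040), and the threshold was missed without pHe6.6 replicate A or C or pHe7.4 replicate A or C (adjusted p of 0.11, 0.082, 0.14 and 0.13 in that order). Scarb2, the receptor that carries beta-glucocerebrosidase to lysosomes, averaged 439.7 ± 31.2 CPM at pHe6.6, against 421 ± 12.6 CPM at pHe7.4, with overlapping groups and a 95% interval of -0.11 to 0.24 for its log2 fold change. Cln3, the protein lost in juvenile Batten disease in people, had 7.08, 7.29 and 8.80 CPM at pHe6.6, against 9.12, 9.31 and 10.3 CPM at pHe7.4. All libraries at pHe6.6 were lower, but the log2 fold change of -0.31 (SE 0.12, adjusted p = 0.068) missed the threshold, which it passed without pHe6.6 replicate C (-0.40, adjusted p = 0.041).

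The remaining genes act on the lysosome as a whole and differed in opposite directions. Gnptab, the precursor of the catalytic subunits of the phosphotransferase that starts the mannose 6-phosphate tag, was the 1 gene lower at pHe6.6. It had 68.1, 67.6 and 64.2 CPM at pHe6.6, against 99.7, 96.7 and 99.2 CPM at pHe7.4. Replicates lay within a few CPM of each other and the groups were far apart (log2 fold change -0.56, SE 0.06, adjusted p = 1.7e-04). Grn, progranulin, which is cut into granulins in the lysosome, had 967, 901 and 998 CPM at pHe6.6, against 411, 422.5 and 412 CPM at pHe7.4. The level at pHe6.6 was 2.30-fold higher, with the smallest adjusted p of the 33 genes (log2 fold change 1.20, SE 0.07, adjusted p = 2.4e-05).

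**Figure D4:**
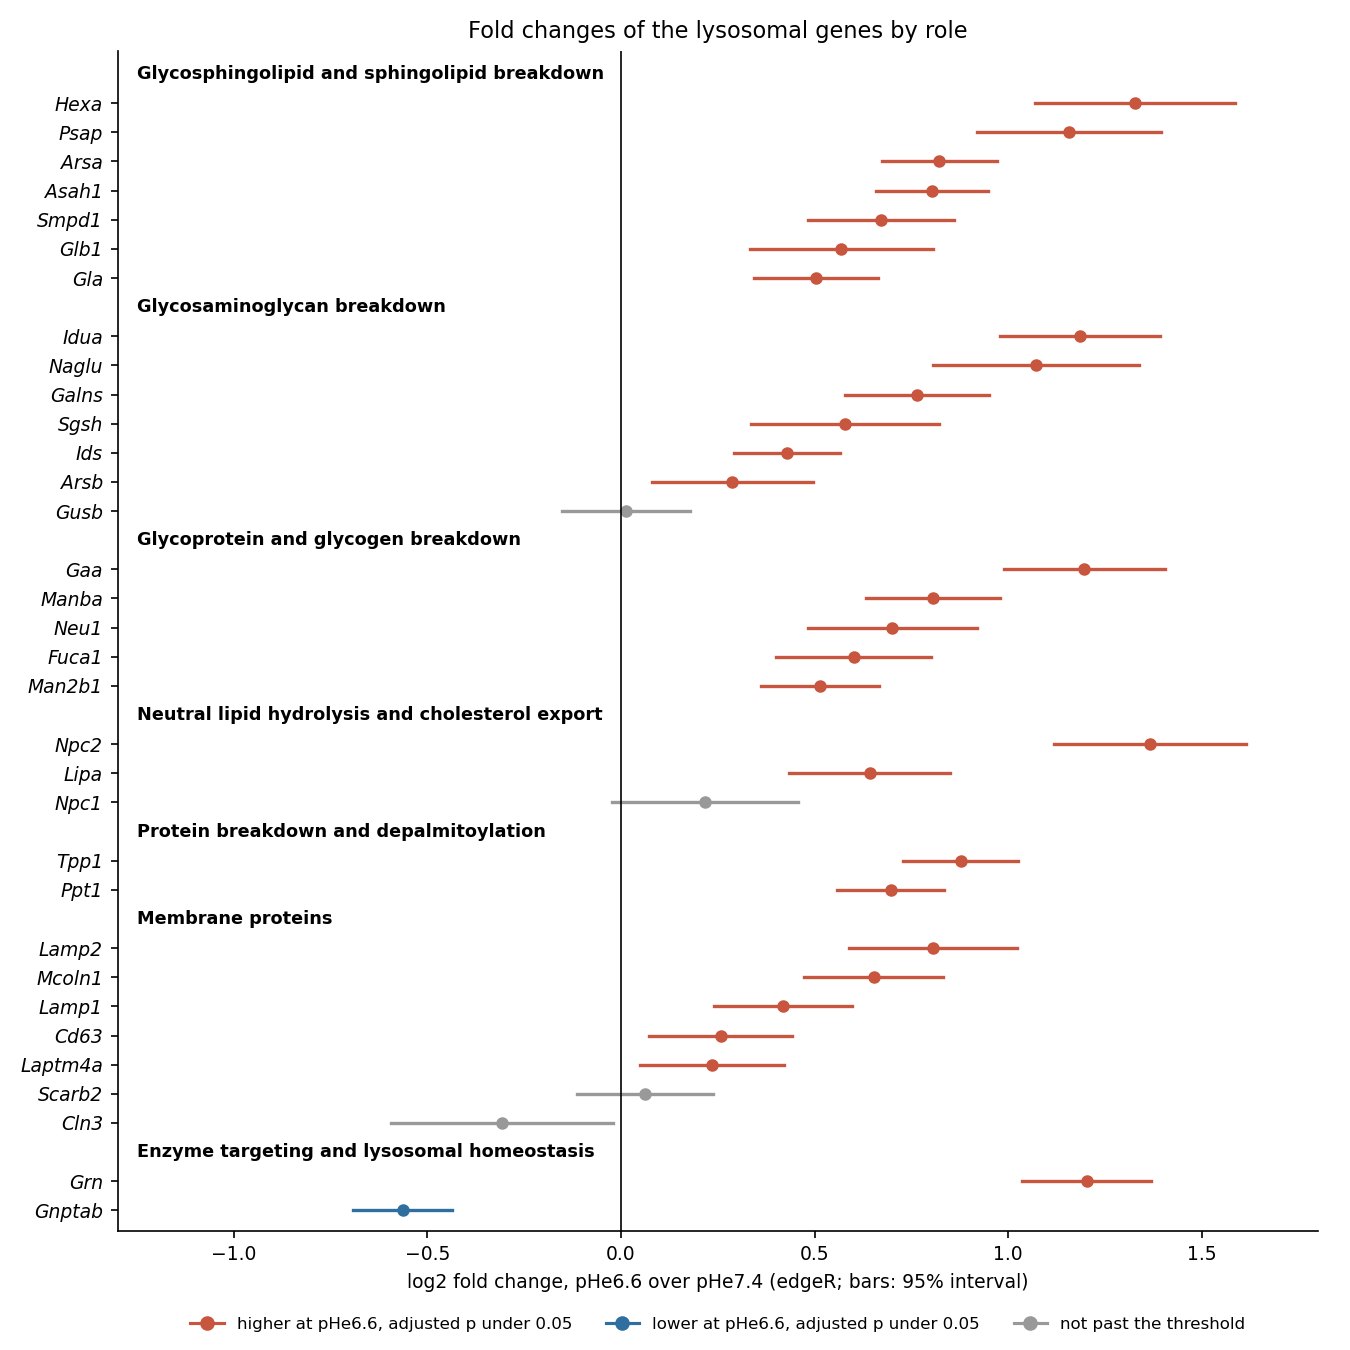
Log2 fold changes (pHe6.6 over pHe7.4) of the 33 lysosomal genes by role, with 95% intervals from edgeR. Red marks the 28 genes higher at pHe6.6, blue Gnptab (-0.56), grey the 4 genes that did not pass the threshold, and the membrane proteins reach at most 0.80 (Lamp2) while Npc2, Hexa, Grn, Gaa, Idua, Psap and Naglu exceed 1.

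Per kilobase of exon, the most abundant transcript of the 33 was Psap under both conditions, at 896 ± 86.0 CPM per kilobase at pHe6.6 and 402 ± 25.8 at pHe7.4. The next were Npc2 (333 at pHe6.6, 129 at pHe7.4), Laptm4a (327 at pHe6.6, 278 at pHe7.4), Lamp1 (284 at pHe6.6, 212 at pHe7.4) and Grn (275 at pHe6.6, 120 at pHe7.4). Npc2 and Laptm4a, and likewise Lamp1 and Grn, did not differ beyond their spread at pHe6.6, and at pHe7.4 the order was Psap, Laptm4a, Lamp1, Cd63, Npc2 and Grn, of which Npc2 and Grn did not differ beyond their spread. Cln3 was the least abundant, at 1.34 CPM per kilobase at pHe6.6 and 1.65 at pHe7.4. Across the 33 genes, level per length and log2 fold change had a Pearson correlation of 0.35 and a Spearman correlation of 0.27, a description over genes that share the same 6 libraries. Along the genome, Gaa and Sgsh lie 58.0 kilobases apart on chromosome 11, and Smpd1 and Tpp1 lie 186 kilobases apart on chromosome 7, and both genes of each pair were higher at pHe6.6.

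Other genes of the lysosomal pathway were counted from lists made for this comparison, beside shares of 26.4% higher and 25.9% lower over all genes tested. Among 33 further hydrolases and cofactors tested, 22 were higher and 4 lower at pHe6.6, with a median log2 fold change of 0.49. Higher ones included the mannosidase Man2b2 (1.06) and the carboxypeptidase Scpep1 (0.92), the most abundant per length. The galactosylceramidase Galc (-0.71), the carboxypeptidase Prcp (-0.27) and the hyaluronidase Hyal2 (-0.38) were lower. Of 32 further membrane proteins, 20 were higher and 2 lower, with a median of 0.36. The peptide transporter Slc15a3 (1.45), the intramembrane protease Sppl2a (0.71) and Tmem106b (0.75) were higher, and the lysophospholipid transporter Spns1 (-0.42) and the cation channel Tpcn2 (-0.28) lower. The most abundant of these per length, the sialomucin Cd164, was higher by a small margin (0.25, adjusted p = 0.045) and missed the threshold without pHe6.6 replicate A or C or pHe7.4 replicate B or C (adjusted p up to 0.14). Tpcn2 missed it without pHe6.6 replicate B or C or pHe7.4 replicate A or C (adjusted p up to 0.098). Cd68 and Laptm5 of this list are also macrophage markers.

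Of 13 cathepsins tested, a group of proteases of which many but not all act in the lysosome, 9 were higher and 1 was lower, with a median of 0.77. Ctso (1.72), Ctsz (1.21) and Ctsf (1.21) had the smallest adjusted p-values. Ctsb, the most abundant per length, averaged 2850.3 ± 407 CPM at pHe6.6, against 1579 ± 144 CPM at pHe7.4 (0.85). The 1 lower gene, Ctsw (-1.59, adjusted p = 0.043), missed the threshold without pHe6.6 replicate C or any single library at pHe7.4 (adjusted p up to 0.13, without pHe7.4 replicate A).

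The genes that tag and sort the enzymes showed no common direction. Of 13 tested, 4 were higher (30.8%) and 3 lower (23.1%), near the shares over all genes tested, with a median of 0.08. The 4 higher genes became 1 when replicate A at pHe7.4 was left out, and 2 when replicate A or C at pHe6.6 or replicate C at pHe7.4 was. M6pr, the cation-dependent mannose 6-phosphate receptor and the most abundant per length, averaged 287 ± 5.96 CPM at pHe6.6, against 203 ± 9.35 CPM at pHe7.4 (log2 fold change 0.50, SE 0.06, adjusted p = 5.1e-04), whereas the larger receptor Igf2r, at 0.08 on the log2 scale, missed the threshold (adjusted p = 0.62). Sort1, a sorting receptor, was lower (-0.60, SE 0.11, adjusted p = 0.0026), as were the adaptor subunits Ap1g1 (-0.24) and Ap1m1 (-0.24). Gnptg, the subunit that joins the Gnptab product in the phosphotransferase, was higher (0.38, SE 0.11, adjusted p = 0.024). Its call was lost without any 1 library other than pHe6.6 replicate B (adjusted p up to 0.081, without pHe7.4 replicate A), that of the adaptor Gga1 (0.21) without pHe7.4 replicate A (adjusted p = 0.063) that of the retromer subunit Vps26a (0.26) without pHe6.6 replicate A or C or pHe7.4 replicate A or C (adjusted p up to 0.085), and that of Ap1g1 without pHe6.6 replicate A (adjusted p = 0.054).

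Of the 21 genes for TFEB, its relatives and their control by mTORC1, 10 were higher and 3 lower, with a median of 0.19. The related factors Mitf (1.13) and Tfec (1.23) were higher, as was Fnip1 (0.37), a partner of folliculin. Tfeb averaged 12.95 ± 0.60 CPM at pHe6.6, against 13.4 ± 3.04 CPM at pHe7.4 (log2 fold change -0.05, SE 0.16, adjusted p = 0.82). Rragb (-1.53), Tfe3 (-0.22) and Rraga (-0.17) were lower, with Rraga the most abundant per length. Rragb averaged 0.46 CPM at pHe6.6, against 1.37 CPM at pHe7.4. It passed the filter of 0.5 CPM in 2 libraries only through the pHe7.4 group, where it was higher. Tfe3 missed the threshold without pHe6.6 replicate A or C or pHe7.4 replicate A (adjusted p up to 0.057), and Rraga without any 1 library at pHe6.6 or pHe7.4 replicate A (adjusted p up to 0.11), so that 1 gene was lower without either replicate A or C at pHe6.6. Of 22 genes for fusion and positioning of lysosomes, 11 were higher and 0 lower in edgeR's test, with a median of 0.21. By adjusted p, 1 was lower in DESeq2's test and 0 with limma-voom. At an unadjusted p under 0.05, 2 were lower in edgeR's test, 1 in DESeq2's test and 2 with limma-voom. The 11 higher genes became 7 when replicate C of either group or replicate A at pHe7.4 was left out, and leaving out the last of these also gave 1 lower gene. Vps39 (0.73), Plekhm2 (0.50) and Plekhm1 (0.59) were higher, and the small GTPase Rab7, the most abundant per length, stood at 0.07 (adjusted p = 0.31). Of 21 V-type proton ATPase subunits, 5 were higher and 5 lower (23.8% each), near the shares over all genes tested, with a median of 0.06. Atp6v0d2 (2.46), Atp6ap2 (0.42), Atp6v0a1 (0.32) and the most abundant, Atp6ap1 (0.35), were higher, and Atp6v0d1 (-0.36), Atp6v0a2 (-0.43) and Atp6v0a4 (-1.40) lower. Atp6v0a4 averaged 0.48 CPM at pHe6.6, against 1.29 CPM at pHe7.4, and likewise passed the filter only through the pHe7.4 group.

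**Figure D5:**
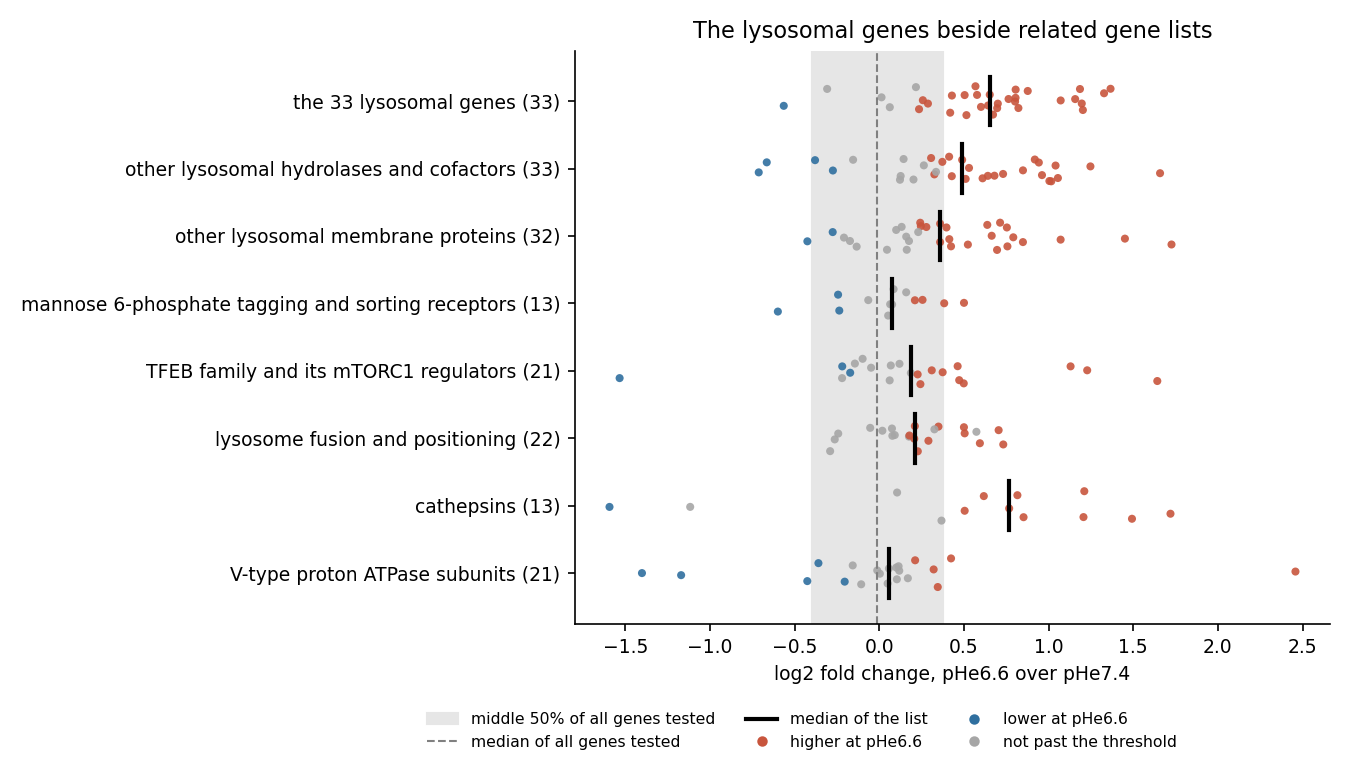
Log2 fold changes (pHe6.6 over pHe7.4) of the 33 lysosomal genes and of 7 related lists, 1 point per gene tested, with red for genes higher at pHe6.6, blue for genes lower, grey for genes that did not pass the threshold and a black line at each list's median. The medians of the 33 genes (0.65) and of the cathepsins (0.77) lie right of the shaded middle 50% of all genes tested, and those of the tagging and sorting genes (0.08) and of the V-type proton ATPase (0.06) lie close to the median of all genes.

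Scaling to total counts alone, without the composition factors of TMM, lowered the median of all genes tested by 0.17 on the log2 scale. With that scaling 25 of the 33 lysosomal genes were higher and 2 were lower at pHe6.6. Cd63, Laptm4a and Arsb were the genes no longer past the threshold, Cln3 joined Gnptab as lower, and Gusb and Scarb2 changed sign without passing it. The counts of the smaller differences in the related lists moved more, to 15 higher and 4 lower for the further membrane proteins, 1 higher and 4 lower for tagging and sorting, 7 higher and 5 lower for TFEB and mTORC1, 4 higher and 3 lower for fusion and positioning, and 2 higher and 7 lower for the V-type proton ATPase.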

How the data were processed

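RNA of PSCs was sequenced as single reads, with 3 libraries per pHe. The authors aligned reads to mm10 with HISAT2 2.2.1 and deposited raw counts per Ensembl gene from featureCounts 2.0.1. The annotation release and strand setting are not given in the sources used here. A second deposited table holds the authors' limma 3.50.1 comparison (fold changes, t and p-values), of which only gene names were used.

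A gene was tested if 2 or more libraries reached 0.5 CPM (15197 genes), in R 4.3.3 with edgeR 4.0.16 (TMM, robust quasi-likelihood test, no covariate, Benjamini-Hochberg over all genes). TMM factors were 0.927 to 1.09, the common biological coefficient of variation 0.140, and 1 count equalled 0.0261 to 0.0346 CPM. The test was checked on simulated counts. Levels per length used GENCODE vM21 exons on GRCm38, which matched 49412 of 49671 genes. Alternatives were other scalings and filters, limma 3.58.1, DESeq2 1.42.0, a fold threshold, a replicate block and leaving out each library.

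The 33 genes and all lists were chosen with earlier results of these data known. Values per library are given for genes past the threshold with an absolute log2 fold change of at least 0.58. They are also given for the 5 most abundant per length, those whose call was lost without 1 library and at least 1 per role. In related lists, the most abundant gene and up to 3 per direction, by adjusted p, are named, apart from some that are not reported here. The values per library of Gnptab and Cln3, and the values of Tfeb, Igf2r and Vps26a, were added to these after they were seen.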

Additional observations from a re-analysis of the deposited data

How the results depend on the processing

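Over 16 alternatives no lysosomal gene that passed the threshold changed direction, and 25 of the 28 higher genes passed it under every alternative except edgeR's test against a log2 fold change of 0.58. Under that stricter test 13 genes were higher and 0 lower (0 also at an unadjusted p under 0.05), and 22 genes of the related lists passed, against 99 of 155. DESeq2's test gave 1 lower gene by adjusted and by unadjusted p, and limma-voom gave 1 by adjusted and 2 by unadjusted p. With upper-quartile factors 27 were higher and 2 lower. Scaling to total counts alone, chosen after seeing the data for all but the summed level, gave 2 lower genes, a median log2 fold change of 0.48 against 0.65 and a difference of the summed levels of 0.64 against 0.81 on the log2 scale. Leaving out 1 library left 25 to 27 genes higher and 1 to 2 lower, a median of 0.64 to 0.70 and a summed difference of 0.77 to 0.87. The share of promoters with a motif was 30% for CACGTG and 10% for TCACGTGA. A fit with a replicate block for the letters A to C left 27 genes higher and 1 lower, without Laptm4a (adjusted p = 0.066). Deviations of same-lettered libraries correlated at -0.06, -0.0004 and 0.23, and only the libraries lettered C correlated best with each other, so that the letters were not taken as pairs. With 3 libraries per group such correlations cannot settle whether the letters mark pairs. The causes were not tested. With 3 libraries per group, the calls of Arsb, Cd63 and Laptm4a depended on single libraries. Of the counts in the related lists, 4 higher genes for tagging and sorting became 2 with the block.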
